A study of Homo sapiens with 8 samples.

Results

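The FOXO factors *FOXO1*, *FOXO3* and *FOXO4* and 7 genes described as FOXO targets (*FBXO32*, *TRIM63*, *IRS2*, *PDK4*, *CITED2*, *BCL6* and *KLHL24*) were examined in human prostate cells treated with Pao extract, which is made from the bark of the tree *Geissospermum vellosii*. They are 10 of the 22465 genes that have a probe set listed with their symbol alone, and each of the 10 has 1 such probe set. The genes were chosen by name from the FOXO pathway, with the log2 fold changes of these same arrays after Pao extract in view. The responses to Pao extract are therefore given as a description, and they support nothing beyond the values themselves. Where counts past a test are given for these responses, no support is drawn from them. Expression was measured on Affymetrix arrays in 4 groups with 2 arrays each: BPH-1 cells with 250 μg/ml Pao extract, BPH-1 cells with vehicle, WPMY-1 cells with 250 μg/ml Pao extract and WPMY-1 cells with vehicle. BPH-1 cells are epithelial cells of a hyperplastic human prostate and WPMY-1 cells are human prostate myofibroblasts, both immortalized, and each stands for its cell type through 1 line. The labels and the paper's legend to its array heatmap put the exposure at 48 h, while the paper's methods name a shorter exposure. The extract was dissolved in DMSO, and no source used here states that a group's arrays stem from separate cultures, so p-values measure only the spread between arrays, which may be technical. BPH-1 cells were grown in RPMI medium and WPMY-1 cells in DMEM, so line and medium cannot be told apart in any comparison of the lines.

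FOXO proteins are transcription factors that insulin and growth factors hold in check. When AKT phosphorylates them they leave the nucleus, and when AKT signalling is low they return and switch on genes of fuel use, cell cycle arrest, stress resistance and protein breakdown. In muscle they are known for driving the ubiquitin ligases of atrophy, *FBXO32* (atrogin-1) and *TRIM63* (MuRF1). The arrays read RNA and not the location or phosphorylation of FOXO proteins, and each array reads a whole culture, so a change in the share of cells that express a gene and a change in RNA per cell cannot be told apart.

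All values are log2 values after RMA, which corrects the background and brings the arrays to a common distribution. Arrays of a group correlated with r from 0.995 to 0.997 over all probe sets. Epithelial markers had medians of 8.37 to 8.62 per array in the BPH-1 line, against 5.37 to 5.48 in the WPMY-1 line. Stromal markers had medians of 5.48 to 5.56 in the BPH-1 line, against 7.07 to 7.61 in the WPMY-1 line, where they were 7.36 and 7.07 with Pao extract and 7.61 and 7.38 with vehicle. Leukocyte markers, which neither line should express, had medians from 4.11 to 4.35, and group means at or below their upper quartile, 4.88, are called near background here. This is a rough guide, since the highest single leukocyte marker averaged 6.04. Skeletal muscle markers, relevant because *FBXO32* and *TRIM63* are known from muscle, had medians from 4.92 to 5.21 on all arrays, and 7 of 16 were near background in every group. With 2 arrays in each group, the smallest 2-sided p of an exact permutation test is 0.333.

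*FBXO32* was the member of the list with the largest difference after Pao extract, about 2-fold in BPH-1 cells, with values in WPMY-1 cells that overlapped between Pao extract and vehicle. *KLHL24* was the one gene of the 10 at least 1.4-fold higher in both lines, the fold cutoff the paper used. *IRS2*, *CITED2* and *BCL6* lay higher on all Pao extract arrays than on all vehicle arrays in both lines, by smaller amounts. Of the factors themselves, *FOXO1* was lower and *FOXO4* higher with Pao extract in WPMY-1 cells, and *FOXO3* was within 0.1 log2 units of vehicle in both lines. *TRIM63* and *PDK4* were near background in all 4 groups. The plot of all 10 genes by array shows these levels.

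**Figure D1:**
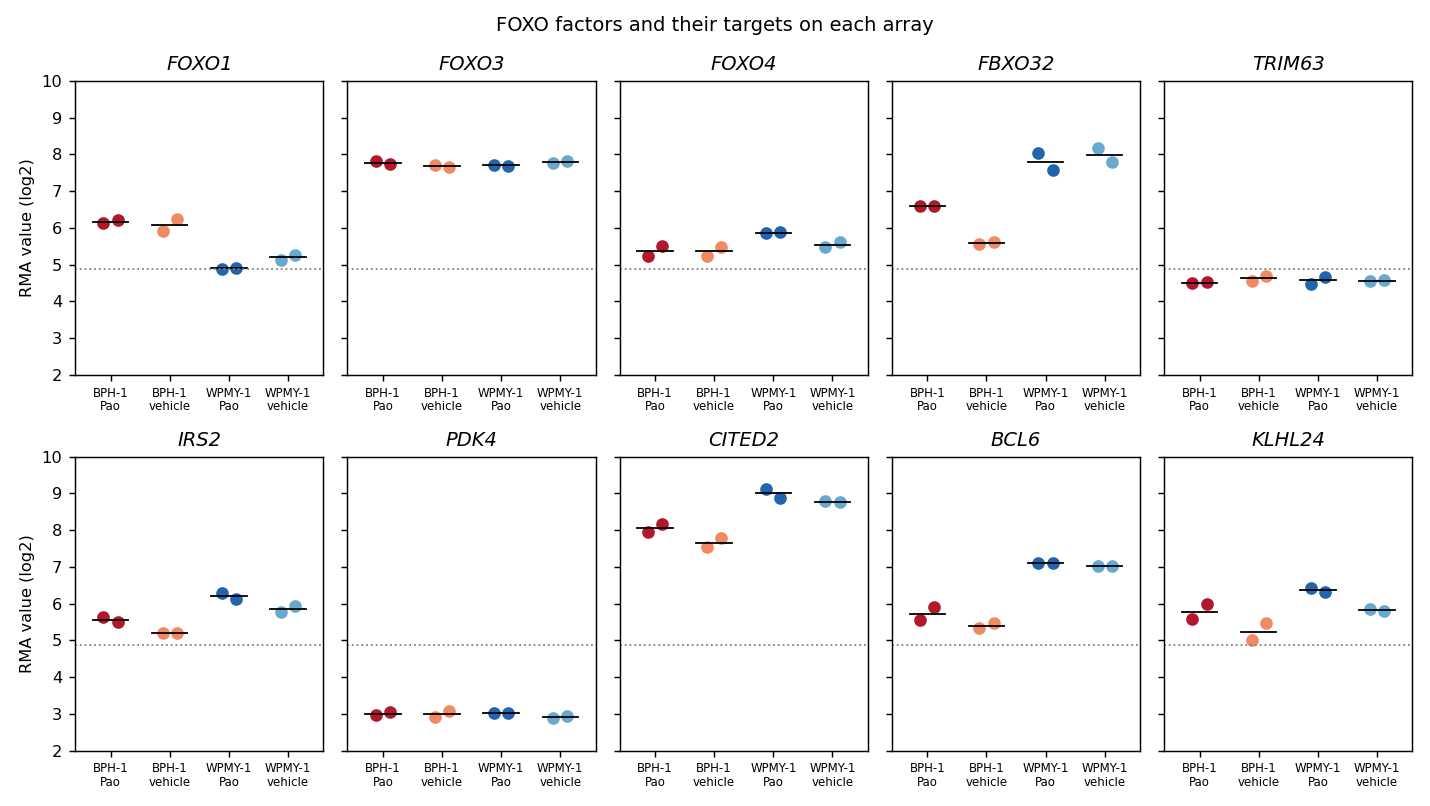
Log2 RMA value of each gene on each of the 8 arrays. Points are arrays, black lines the means of 2 arrays, and the dotted line at 4.88 marks the near-background level; levels are comparable between groups of 1 gene and not between genes. *FBXO32* has both BPH-1 Pao extract arrays above both BPH-1 vehicle arrays, while *TRIM63* and *PDK4* stay below the dotted line.

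In BPH-1 cells 2 of the 10 genes were at least 1.4-fold higher with Pao extract (0.236% of all genes) and 0 at least 1.4-fold lower (0.0623% of all genes). In WPMY-1 cells 1 was at least 1.4-fold higher (0.392% of all genes) and 0 were lower (0.632%). At 1.5-fold the counts of higher genes were 1 (0.120% of all genes) and 0 (0.231%). On all arrays, 6 of the 10 lay higher with Pao extract than with vehicle in BPH-1 cells (14.4% of all genes), and 6 in WPMY-1 cells (27.0%). The genes that did so in both lines were *IRS2*, *CITED2*, *BCL6* and *KLHL24*, 4 of 10, against 3.98% of all genes. After each array was centred on its median only *IRS2* and *KLHL24* did, 2 of 10 against 3.51% of all genes. Among the 6 of each line, *PDK4* in WPMY-1 cells was near background, and the BPH-1 arrays of *FOXO3* overlapped after centring. The median log2 fold change of the 10 genes was 0.21 in BPH-1 cells, with 0.11 for WPMY-1 cells, beside medians of -0.01 and 0.03 over all genes. By limma with Benjamini-Hochberg adjustment over all genes, 0 of the 10 passed an adjusted p of 0.05 in BPH-1 cells (0.00% of all genes) and 0 in WPMY-1 cells (0.0668%). At an unadjusted p under 0.05 from limma the counts were 5 (4.13% of all genes) and 4 (11.2%), and by the methods' t-test 2 (5.15%) and 5 (7.24%) before and 0 and 0 after adjustment. Since the list was made with these contrasts known, nothing is read from these counts. Without the first Pao extract array of BPH-1 cells 4 genes passed 1.4-fold there, and without the first vehicle array or the second Pao extract array 1 did. The plot of the responses sets both lines side by side.

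**Figure D2:**
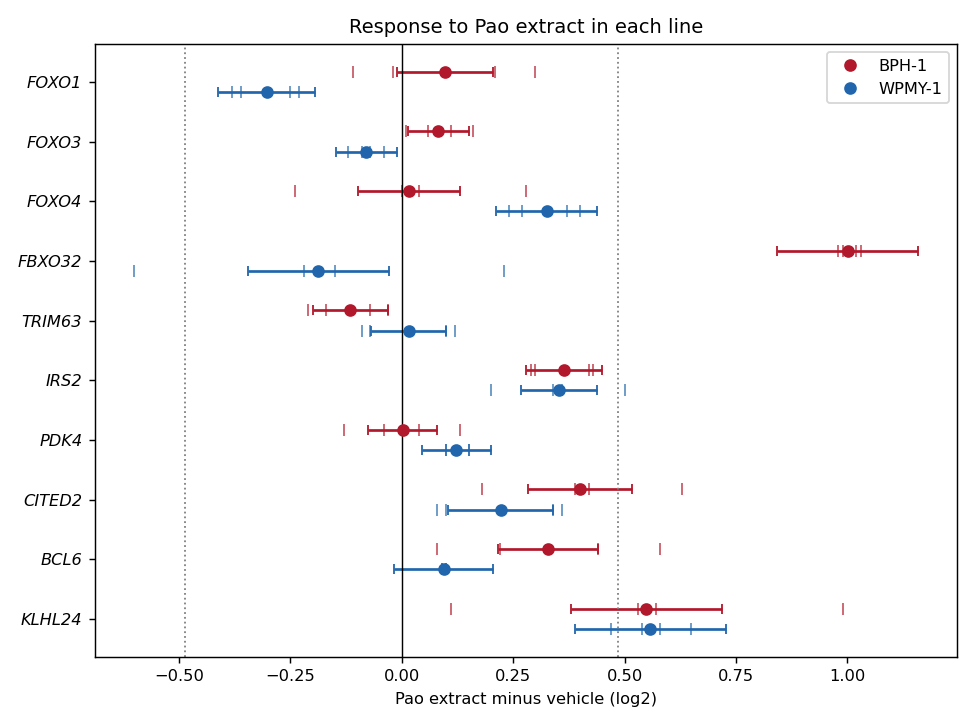
Difference in log2 RMA value between Pao extract and vehicle for each gene, BPH-1 cells above WPMY-1 cells. Dots are the differences of the group means with the standard error from limma, which pools the spread within all 4 groups of both lines. Ticks are the 4 differences between single arrays, and dotted lines mark 1.4-fold. *FBXO32* stands at 1.00 in BPH-1 cells but at -0.19 in WPMY-1 cells, and *KLHL24* at 0.55 and 0.56.

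*FOXO1*, a FOXO factor that insulin signalling restrains in liver and fat, had log2 values of 6.13 and 6.22 in BPH-1 cells with Pao extract, against 5.92 and 6.24 with vehicle. These arrays overlapped, and the log2 fold change was 0.10 (standard error 0.11). In WPMY-1 cells *FOXO1* had 4.89 and 4.91 with Pao extract, against 5.14 and 5.27 with vehicle. Both Pao extract arrays were lower than both vehicle arrays, with a log2 fold change of -0.30 (standard error 0.11) and a Pao extract mean of 4.90, at the edge of background. Only 2.61% of all genes had a lower log2 fold change in this line. The responses of *FOXO1* differed by 0.40 log2 units between the lines, BPH-1 minus WPMY-1 (standard error 0.15). The difference was 0.24 without the first vehicle array of BPH-1 cells and 0.56 without the second.

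*FOXO3*, the FOXO factor best known for the induction of atrophy and autophagy genes, had 7.83 and 7.73 in BPH-1 cells with Pao extract, against 7.72 and 7.67 with vehicle. In WPMY-1 cells it had 7.72 and 7.69 with Pao extract, against 7.76 and 7.81 with vehicle. The arrays did not overlap in either line, yet the differences were 0.08 and -0.08 log2 units (standard error 0.07 each), so all 8 arrays lay within a narrow band.

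*FOXO4*, a smaller FOXO factor encoded on the X chromosome, had 5.85 and 5.88 in WPMY-1 cells with Pao extract, against 5.48 and 5.61 with vehicle. The log2 fold change there was 0.33 (standard error 0.11), and both Pao extract arrays were higher. In BPH-1 cells *FOXO4* had 5.24 and 5.52 with Pao extract, against 5.24 and 5.48 with vehicle, a difference of 0.02 with overlapping arrays. In WPMY-1 cells *FOXO1* and *FOXO4* thus differed from vehicle in opposite directions, by about equal amounts.

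*FBXO32* encodes atrogin-1, the F-box protein that brings substrates to an SCF ubiquitin ligase. Its log2 values in BPH-1 cells were 6.60 and 6.59 with Pao extract, against 5.57 and 5.61 with vehicle. The arrays of each group nearly coincided, the 4 differences between single arrays lay from 0.98 to 1.02, and the log2 fold change was 1.00 (standard error 0.16). This standard error pools both lines and reflects mainly the WPMY-1 arrays, with SDs of 0.32 and 0.27, rather than the BPH-1 arrays. It ranked 4 of 22465 genes from the highest in this line. Leaving out single arrays gave values between 0.98 and 1.02. In WPMY-1 cells *FBXO32* had 8.03 and 7.58 with Pao extract, against 8.18 and 7.80 with vehicle. These arrays overlapped, the log2 fold change was -0.19 (standard error 0.16), and leaving out single arrays gave values between -0.42 and 0.04. The responses differed by 1.19 log2 units between the lines (standard error 0.22), rank 6 of 22465 from the highest, and *FBXO32* was the 1 gene of the 10 whose responses differed by at least 1.4-fold, higher in BPH-1 cells (1.05% of all genes). A second gene, *FOXO1*, joined it without the second vehicle array of BPH-1 cells. By limma 0 of the 10 passed an adjusted p of 0.05 for a difference of the responses (0.00% of all genes), and 2 had an unadjusted p under 0.05 (7.13%).

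The level of *FBXO32* in treated BPH-1 cells remained below that of WPMY-1 cells. With Pao extract BPH-1 cells were 1.21 log2 units below WPMY-1 cells, and with vehicle 2.40 units below. The order of the group means was WPMY-1 with vehicle (7.99 ± 0.27), WPMY-1 with Pao extract (7.80 ± 0.32), BPH-1 with Pao extract (6.59 ± 0.0017) and BPH-1 with vehicle (5.59 ± 0.029, SD, n = 2 each). The first and second of these overlapped, and the other neighbours did not.

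*TRIM63*, the muscle RING-finger ligase that is induced beside *FBXO32* in atrophying muscle, had values from 4.48 to 4.70 on the 8 arrays. It was near background in every group, so its differences of -0.11 in BPH-1 cells, with 0.02 for WPMY-1 cells, are no measure of expression. Its partner in muscle atrophy, *FBXO32*, lay above the near-background level of 4.88 in all groups. Its mean of 5.59 in BPH-1 cells with vehicle was still below the highest single leukocyte marker, 6.04.

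*IRS2*, an adaptor that links the insulin receptor to PI3-kinase and that FOXO factors induce in liver, had 5.63 and 5.50 in BPH-1 cells with Pao extract, against 5.21 and 5.20 with vehicle. In WPMY-1 cells it had 6.28 and 6.14 with Pao extract, against 5.78 and 5.94 with vehicle. Both Pao extract arrays were higher in each line, with log2 fold changes of 0.36 and 0.35 (standard error 0.09 each), about 1.29-fold and 1.28-fold. These differences were larger than 99.5% and 98.9% of all genes in their line, and lay between 0.30 and 0.43 and between 0.28 and 0.43 with single arrays left out. The 4 groups were all apart from each other, in the order WPMY-1 with Pao extract, WPMY-1 with vehicle, BPH-1 with Pao extract and BPH-1 with vehicle. *PDK4*, the kinase that shuts off pyruvate dehydrogenase in fasting and is a FOXO target in muscle and liver, had values from 2.88 to 3.09 on all arrays and was near background throughout.

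*CITED2*, a coregulator that competes with hypoxia-inducible factor for the coactivators CBP and p300, had 7.96 and 8.17 in BPH-1 cells with Pao extract, against 7.54 and 7.78 with vehicle. In WPMY-1 cells it had 9.13 and 8.87 with Pao extract, against 8.79 and 8.77 with vehicle. The log2 fold changes were 0.40 and 0.22 (standard error 0.12 each), with no overlap between arrays in either line. Without the first Pao extract array of WPMY-1 cells the value in that line was 0.09, and after centring of the arrays those of WPMY-1 cells overlapped.

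*BCL6*, a transcriptional repressor known from germinal centre B cells, had 5.55 and 5.91 in BPH-1 cells with Pao extract, against 5.33 and 5.47 with vehicle. In WPMY-1 cells it had 7.12 and 7.12 with Pao extract, against 7.03 and 7.02 with vehicle. The log2 fold change was 0.33 in BPH-1 cells but 0.09 in WPMY-1 cells (standard error 0.11 each). The first was larger than 99.2% of all genes and the second than 71.5%, and the second lost its separation of arrays on centring. In BPH-1 cells it was 0.15 without the second Pao extract array and 0.51 without the first.

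*KLHL24*, a substrate adaptor of a CUL3 ubiquitin ligase that in skin controls the turnover of keratin 14, had 5.57 and 5.99 in BPH-1 cells with Pao extract, against 5.00 and 5.46 with vehicle. In WPMY-1 cells it had 6.44 and 6.33 with Pao extract, against 5.86 and 5.79 with vehicle. All Pao extract arrays were higher in each line, with log2 fold changes of 0.55 and 0.56 (standard error 0.17 each), 1.46-fold and 1.47-fold, ranks 33 and 58 of 22465 from the highest. In BPH-1 cells the second array was the higher one in both groups, and the gap between the nearest arrays of Pao extract and vehicle was 0.11, against 0.47 in WPMY-1 cells. In BPH-1 cells the value was 0.32 without the first vehicle array and 0.34 without the second Pao extract array, below 1.4-fold. At 1.4-fold in both lines, *KLHL24* was 1 of 10 genes (0.0890% of all genes).

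Promoter sequences of 9 of the 10 genes were matched by symbol in RefSeq (GRCh38.p14), in 15 windows of 250 bases before to 50 after a transcription start. *FBXO32* was not matched. The windows were searched on both strands for the forkhead motif GTAAACA, which reads TGTTTAC on the other strand, for its variant ATAAACA, which reads TGTTTAT, and for the insulin response core CAAAACA, which reads TGTTTTG. Of 35116 RefSeq windows, 3.42% hold the first motif, 4.24% the variant and 4.92% the core. *KLHL24* and *IRS2* each hold 1 match to the core, read on the reverse strand, with its first base at position -32 in *KLHL24* and -40 in *IRS2* from the start. *CITED2* and *BCL6* hold none of the motifs in their 3 and 2 windows. The 100 bases before the start of these 4 genes, those higher on all Pao extract arrays of both lines, are shown for comparison, with motifs in capitals, from the windows listed first for *CITED2* and *BCL6*.
KLHL24, chr3:183635523-183635622, plus strand: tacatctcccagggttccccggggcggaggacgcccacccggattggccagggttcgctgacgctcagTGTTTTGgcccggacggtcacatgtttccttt
IRS2, chr13:109786584-109786683, minus strand: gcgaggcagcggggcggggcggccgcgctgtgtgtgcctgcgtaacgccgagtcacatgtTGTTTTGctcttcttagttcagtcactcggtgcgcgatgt
CITED2, chr6:139374649-139374748, minus strand: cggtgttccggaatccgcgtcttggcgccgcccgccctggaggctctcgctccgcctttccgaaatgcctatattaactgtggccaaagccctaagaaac
BCL6, chr3:187745469-187745568, minus strand: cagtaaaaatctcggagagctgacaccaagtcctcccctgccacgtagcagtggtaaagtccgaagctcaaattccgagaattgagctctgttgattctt

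The forkhead motifs themselves were found in other members of the list. *FOXO4*, which was higher with Pao extract in WPMY-1 cells, holds GTAAACA with its first base at position 24. *FOXO1*, lower with Pao extract in those cells by about the same amount, holds none of the motifs, and neither does *PDK4*. *TRIM63*, near background on these arrays, holds TGTTTAT with its first base at position -193, and 1 of 4 windows of *FOXO3* holds ATAAACA. The sites of *FOXO4* and *TRIM63* are shown because they are the forkhead matches of a factor and of an atrophy ligase. A match of letters is a description and not a binding site.
FOXO4, chrX:71095862-71095891, plus strand: ccccggcgagtgGTAAACAgagacgtcagg
TRIM63, chr1:26067790-26067840, minus strand: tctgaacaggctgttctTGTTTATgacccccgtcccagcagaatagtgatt

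The baseline of the lines was not a contrast with Pao extract and was tested with limma over all 22465 genes. Of the 10 genes, 6 passed an adjusted p of 0.05 between vehicle-treated BPH-1 and WPMY-1 cells, against 30.9% of all genes. At an unadjusted p under 0.05 from limma 6 passed (39.6% of all genes), and by the methods' t-test 5 before adjustment (25.7%) and 0 after it (0.134%). *FBXO32*, *BCL6*, *CITED2*, *IRS2* and *KLHL24* were lower in BPH-1 cells, 5 of 10 against 15.3% of all genes, and *FOXO1* was higher, 1 of 10 against 15.6%. The vehicle arrays of each line enter both this comparison and the response to Pao extract in that line. The genes were chosen with those responses in view. The choice is therefore not independent of this comparison, and nothing is read from these counts.

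*FBXO32* had 5.57 and 5.61 in BPH-1 cells with vehicle, against 8.18 and 7.80 in WPMY-1 cells with vehicle. The log2 difference, BPH-1 minus WPMY-1, was -2.40 (standard error 0.16, adjusted p = 1e-05 from limma), 5.27-fold lower in BPH-1 cells. *BCL6* had a difference of -1.63 (standard error 0.11, adjusted p = 1.3e-05 from limma), with 5.33 and 5.47 in BPH-1 cells against 7.03 and 7.02 in WPMY-1 cells. *CITED2* had -1.12 (adjusted p = 0.00015 from limma) and *IRS2* -0.66 (adjusted p = 0.00052 from limma), each with no overlap between the lines. *KLHL24* had -0.60 (adjusted p = 0.027 from limma), and its adjusted p was 0.16 without the first vehicle array of BPH-1 cells and 0.11 or 0.073 without the first or second vehicle array of WPMY-1 cells.

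Of the factors, *FOXO1* was the one past limma's test between the lines with vehicle, though not past the methods' t-test (adjusted p = 0.17). It had 5.92 and 6.24 in BPH-1 cells with vehicle, against 5.14 and 5.27 in WPMY-1 cells with vehicle, a log2 difference of 0.88 (standard error 0.11, adjusted p = 0.00038 from limma), 1.84-fold higher in BPH-1 cells. *FOXO3* and *FOXO4* had differences of -0.09 and -0.18 that did not pass the test (adjusted p = 0.40 and adjusted p = 0.28 from limma). That does not show equal levels. *FOXO3* was lower on all vehicle arrays of BPH-1 cells, and *FOXO4* passed with a replicate block within each line (adjusted p = 0.032 from limma). The differences of *TRIM63* and *PDK4*, 0.07 and 0.10, lay between values near background. The plot of the lines with vehicle shows the 10 differences.

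**Figure D3:**
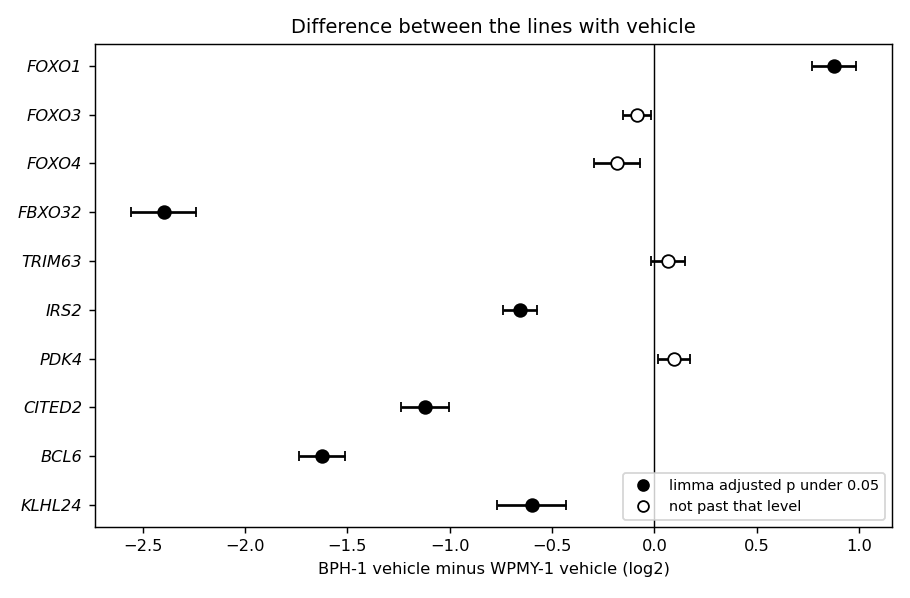
Difference in log2 RMA value between vehicle-treated BPH-1 and WPMY-1 cells for each gene, with the standard error from limma. Filled points passed an adjusted p of 0.05 over all genes. *FBXO32* is the lowest at -2.40 and *FOXO1* the highest at 0.88.

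Other genes of the pathway were counted on lists written from general knowledge of FOXO signalling, with earlier results of these data known. Their counts are a description and no independent support. Of 49 other FOXO targets 46 were measured, and 0 passed limma's test in either line at an adjusted p of 0.05. Of these, 35 lay above 0 in BPH-1 cells (43.0% of all genes) and 34 for WPMY-1 cells (59.8%), with medians of 0.07 and 0.06 beside -0.01 and 0.03 for all genes. All Pao extract arrays lay higher than the vehicle arrays for 14 of the 46 in BPH-1 cells, with 21 for WPMY-1 cells, where 14.4% and 27.0% of all genes did. All lay lower for 2 and 4 of the 46 (18.8% and 16.6% of all genes). 1 of the 46 passed 1.4-fold, *LPIN1* in WPMY-1 cells, where 0.392% of all genes were at least as much higher. Another target lay just under the cutoff in BPH-1 cells, at a log2 fold change of 0.484 against 0.485. *LPIN1* encodes a phosphatidate phosphatase of lipid synthesis. *LPIN1* had 7.83 and 8.04 in WPMY-1 cells with Pao extract, against 7.22 and 7.41 with vehicle, a log2 fold change of 0.62 (standard error 0.16). In BPH-1 cells it had 7.33 and 6.83 with Pao extract, against 6.80 and 6.64 with vehicle, a log2 fold change of 0.36, with no overlap in either line.

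Of 32 genes of insulin to AKT signalling and its branches, 27 were measured, with medians of -0.01 in both lines and 0 past the test. The list mixes activators with inhibitors, so its median is no reading of the pathway's activity. *IGF1R*, the receptor of insulin-like growth factors, was the 1 gene past 1.4-fold, in WPMY-1 cells. It had 8.21 and 7.89 in WPMY-1 cells with Pao extract, against 8.71 and 8.48 with vehicle, a log2 fold change of -0.55 (standard error 0.11). In BPH-1 cells it had 8.52 and 8.52 with Pao extract, against 8.40 and 8.46 with vehicle, a log2 fold change of 0.09. Among 27 measured regulators and partners of FOXO proteins, such as deacetylases, coactivators and 14-3-3 proteins, 0 passed the test or 1.4-fold. Of these, 14 lay lower on all Pao extract arrays in WPMY-1 cells (16.6% of all genes), with a median of -0.11, and 6 in BPH-1 cells (18.8%), where the median was 0.02.

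The 18 paralogs of the 10 genes had log2 fold changes between -0.14 and 0.24 with Pao extract in BPH-1 cells, against -0.21 and 0.35 as the bounds in WPMY-1 cells, and 0 passed the test. *FOXO6*, the remaining FOXO factor, had -0.14 in BPH-1 cells but 0.28 in WPMY-1 cells. *IRS1*, the adaptor related to *IRS2*, had -0.13 and -0.21, where *IRS2* had 0.36 and 0.35. *CITED4*, related to *CITED2*, had 0.24 and 0.35, and *CITED1*, at the upper edge of near background, -0.07 and 0.09. *FBXO25*, the F-box gene nearest to *FBXO32*, had 0.02 and 0.10, and *TRIM54* and *TRIM55*, related to *TRIM63*, lay near background with values up to 0.10. Unlike *PDK4*, the pyruvate dehydrogenase kinases *PDK1*, *PDK2* and *PDK3* lay above the near-background level. They had 0.01, 0.00 and 0.08 in BPH-1 cells, with 0.09, 0.08 and 0.07 for WPMY-1 cells. *BCL6B* had -0.08 and 0.09, and *KLHL6*, *KLHL9* and *KLHL15* from -0.09 to 0.00 in both lines. Of these, *KLHL6* was near background in all groups. The other paralogs, *FOXM1*, *FOXK1*, *FOXK2* and *IRS4*, lay between -0.05 and 0.02 in BPH-1 cells, with -0.01 and 0.23 as the bounds for WPMY-1 cells. The 0.23 belongs to *IRS4*, which was near background.

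Of 20 genes of atrophy ligases and SCF parts 15 were measured, with medians of -0.02 in BPH-1 cells, with 0.01 for WPMY-1 cells, and of 10 genes of pyruvate dehydrogenase and its phosphatases 9, with medians of 0.03 and -0.07. In both lists 0 genes passed the test or 1.4-fold in either line. The plot of the lists shows these values beside those of all genes.

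**Figure D4:**
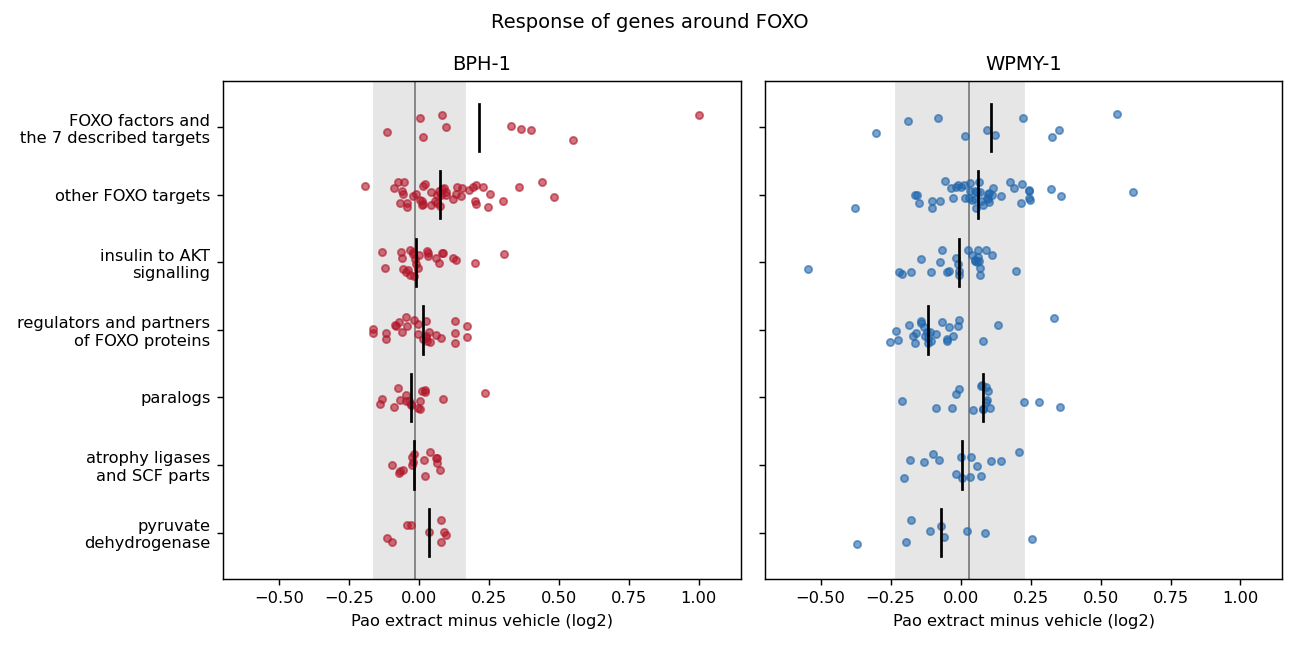
Difference in log2 RMA value between Pao extract and vehicle for the genes of each list, BPH-1 cells on the left and WPMY-1 cells on the right. Points are genes, black lines medians, the grey line is the median of all genes and the grey band holds the 5th to 95th percentile of all genes. The point at 1.00 in BPH-1 cells is *FBXO32*, and the 2 outermost points of the other lists in WPMY-1 cells are *LPIN1* at 0.62 and *IGF1R* at -0.55.

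The genes with the pattern most like *FBXO32* over the 8 arrays, among 2128 other genes whose values spanned at least 1 log2 unit, were *CDKN2B-AS1*, *RHOBTB3*, *FAR2-AS1*, *EDIL3* and *H2AC6*, with Pearson correlations from 0.978 to 0.982. With vehicle the log2 difference of these 5 genes, BPH-1 minus WPMY-1, lay between -2.95 and -0.85, so the difference of the lines enters each correlation. Their log2 fold changes with Pao extract were 0.26 to 0.60 in BPH-1 cells, with -0.36 to -0.01 for WPMY-1 cells, and *FAR2-AS1* was near background in all groups. Most like *KLHL24* were *CREBRF*, *TP53INP1*, *WDTC1*, *SQSTM1* and *STOX1*, with correlations from 0.917 to 0.978. *SQSTM1* encodes the autophagy receptor p62. Their log2 fold changes with Pao extract were 0.21 to 0.56 in BPH-1 cells, with 0.31 to 0.50 for WPMY-1 cells. These correlations rest on 8 arrays of 2 lines and are a description of likeness only.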

How the data were processed

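RNA of the prostate lines, with Pao extract or vehicle, was hybridised to Affymetrix Human Transcriptome Arrays, 8 arrays in all. The files deposited hold log2 values, made with RMA per the submitters' processing notes, for 67528 probe sets on each array. Neither the RMA version nor the probe sets' genome build is given in the sources used here. Values were used with no further normalization, pseudocount or filter. The platform annotation gave the gene symbols: 23781 probe sets carry 1 symbol, 1543 several and 42204 are not listed there. Symbols were updated through gene IDs to RefSeq (GRCh38.p14) for 21497 probe sets. Where a gene had more than 1 probe set (479 genes), that of highest mean stood for it, which gave 22465 genes.

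Group means were estimated from the 8 arrays jointly in limma 3.58.1 (R 4.3.3), using moderated variances, 4 residual degrees of freedom and Benjamini-Hochberg adjustment over all genes of each comparison. The fit was tested on simulated data with noise drawn independently for each array. Calls were required there only at fold changes larger than any response of the 10 genes to Pao extract. Tables and motif searches were made with Python 3.11.15. The number of arrays limits the precision. The 10 genes and all gene lists were chosen with earlier results of these data known. Named are the 10 genes, their paralogs, genes of the other lists past 1.4-fold or past the test in a line, and the 5 genes most like *FBXO32* and *KLHL24*. The motif ATAAACA was added after the sequences were seen. The alternatives tried were quantile normalization of the values, median centring, removal of dim genes, the mean over probe sets, a fit on the compared groups, another variance model, a replicate block, the methods' t-test, a 1.5-fold cutoff and leaving out each array.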

Additional observations from a re-analysis of the deposited data

Results flagged for a closer look

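Each of 30 named genes was looked at for arrays that all lay on opposite sides in the lines, and 4 did so, where 7.60% of all genes do. By limma 0 genes passed a test of the difference of the responses, so none of these differences is established. *FOXO3* was higher on all Pao extract arrays of BPH-1 cells and lower on all of WPMY-1 cells, a difference of the responses of 0.16 log2 units, BPH-1 minus WPMY-1. After centring of the arrays those of BPH-1 cells overlapped. *IGF1R* had the same directions and a difference of 0.63. *FOXO6* and *BCL6B* had the opposite directions, with differences of -0.42 and -0.17.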

How the results depend on the processing

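The 10 genes have 1 probe set each, so the choice of probe set changed none of their values. With a cutoff of 1.5-fold, 1 gene was higher in BPH-1 cells, with 0 for WPMY-1 cells, in place of 2 and 1. When any 1 array was left out, the count at 1.4-fold lay from 1 to 4 in BPH-1 cells, and the count of responses at least 1.4-fold apart from 1 to 2. Arrays with the same repeat number deviated together over genes, with r of 0.501 for Pao extract against vehicle in BPH-1 cells, or 0.429 in WPMY-1 cells, but nothing in the sources explains the number. With a replicate block within each line, limma called 1 of the 10 genes in BPH-1 cells, *FBXO32*, and 1 in WPMY-1 cells, *KLHL24*. Without the block it called 0. The list was made with these contrasts known and the repeat number is unexplained, so nothing is read from these calls. Over all genes the block raised the calls to 3 in BPH-1 cells, against 0 without it, and to 223 in WPMY-1 cells, against 15. At baseline it called 7 of the 10 genes, *FOXO4* added. By the methods' t-test after adjustment, 0 of the 10 passed at baseline in place of 6. The cause was not tested. Centring each array left 2 of the 10 genes higher on all Pao extract arrays of both lines, in place of 4, and moved the median of all genes at baseline by -0.11. It turned the baseline values of *TRIM63* and *PDK4*, both near background, to -0.04 and -0.01. The other alternatives kept the counts of the 10 genes within 1.5 times.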
